A study of Saccharomyces cerevisiae with 36 samples.

Results

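The ATG genes of budding yeast (Saccharomyces cerevisiae) encode the proteins that carry out autophagy, and they were followed here through exposure to 3 compounds that disturb the cell wall. The set holds every gene whose current RefSeq symbol is ATG and a number and that has a value in the deposited data, which gave 36 of 5713 measured genes. RefSeq lists 37 such symbols, and the one not on the array was ATG44. Of the compounds, calcofluor white and congo red bind polysaccharides of the wall, and caffeine is a methylxanthine that inhibits the TORC1 kinase in yeast. Cells received calcofluor white or congo red at 0.02 or 0.1 mg/ml, or caffeine at 2 or 20 mM, and were taken after 5, 15 or 90 min. Each treated sample shared a 2-colour array with an untreated sample of the same time. There are 2 such arrays for each of the 18 conditions, 36 in all, and treated RNA carried Cy5 in replicate 1 but Cy3 in replicate 2. The series describes the pairs as biological replicates with the dyes exchanged. The sources used here do not give the strain, the medium or whether conditions shared an untreated culture.

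Autophagy encloses cytoplasm in a double membrane, the autophagosome, and delivers it to the vacuole for breakdown. The Atg1 kinase complex starts the process when TORC1 is inactive, a phosphatidylinositol 3-kinase complex marks the membrane, Atg9 vesicles supply lipid, and a pair of ubiquitin-like conjugation systems attaches Atg8 to the growing sheet. Receptors select mitochondria, vacuolar enzymes and other cargo, and vacuolar enzymes and transporters degrade and recycle what arrives. In growing yeast a related route, the cytoplasm-to-vacuole targeting (Cvt) pathway, uses many of the same proteins to carry aminopeptidases to the vacuole.

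All values are log2 ratios of treated to untreated RNA, and the number of arrays limits their precision. The labels name the treated sample first but do not state the direction of the ratio, so treated over untreated is likely and not certain. Both dye orientations ran the same way where responses were large, with a correlation over genes of 0.70 at 90 min and 0.58 at 15 min of caffeine 20 mM. It was only 0.14 at 5 min of that dose, and 0.15 and 0.18 at 90 min of calcofluor white 0.1 and 0.02 mg/ml. These correlations, taken before a dye term was fitted, were negative in every other condition, down to −0.60. Labels of 7 arrays disagree within themselves on dose or time, and the title was followed. They are replicate 1 of caffeine 20 mM at 15 min, both arrays of each calcofluor white dose at 15 min, and replicate 1 of calcofluor white 0.02 mg/ml at 5 min and of congo red 0.02 mg/ml at 90 min. Replicate 1 of caffeine 2 mM at 5 min correlated at −0.375 with replicate 1 at 15 min, so the direction of these 2 arrays is not settled. In a bulk culture a ratio cannot tell more RNA per cell from more cells that make it. Fitted values are given ± SE from limma, which used 1 residual variance per gene over all 36 arrays and a dye term per gene. With n = 2 arrays in every condition, the SE is not the spread of the pair printed with it. The words rose and fell are used where the limma adjusted p (Benjamini-Hochberg over all genes tested in the comparison) was below 0.05.

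Of the 36 ATG genes, 33 had values on at least 24 of the 36 arrays and were tested. Of these, 28 changed in at least 1 condition, 20 upward and 8 downward, and none rose in one condition and fell in another. The same counts were not made over all genes, of which 1 condition alone called 44.4%. These counts thus do not set the ATG genes apart. All of the calls fell in 5 of the 18 conditions. They were most numerous with caffeine 20 mM at 90 min, where 20 of 33 ATG genes changed (13 higher, 7 lower) against 44.4% of all genes (22% higher, 22.4% lower). At 15 min of the same dose 14 of 33 changed (11 higher, 3 lower) against 31.1% of all genes (14.3% higher, 16.8% lower). The median ATG log2 ratio was 0.29 at 90 min and 0.19 at 15 min, beside −0.03 and 0.02 for all genes. The 90 min median was 0.18 without replicate 1, 0.11 on arrays scaled to 1 spread, 0.17 with floored spots kept and 0.16 over genes with values on all arrays. The split also depended on the scaling and on the dye term. It was 7 higher and 7 lower at 90 min without centring of arrays, which lowered the median of all genes there by 0.087, and 5 higher with none lower when arrays were scaled to 1 spread. The scaled arrays gave 3 higher and 2 lower at 15 min. Without the dye term the split was 8 higher with none lower at 90 min, and 4 higher and 1 lower at 15 min. Of 5270 genes at 90 min, 2288 were called without centring, 891 on scaled arrays and 1386 without the dye term. Of 5258 genes at 15 min, 561 were called on scaled arrays and 657 without the dye term.

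**Figure D1:**
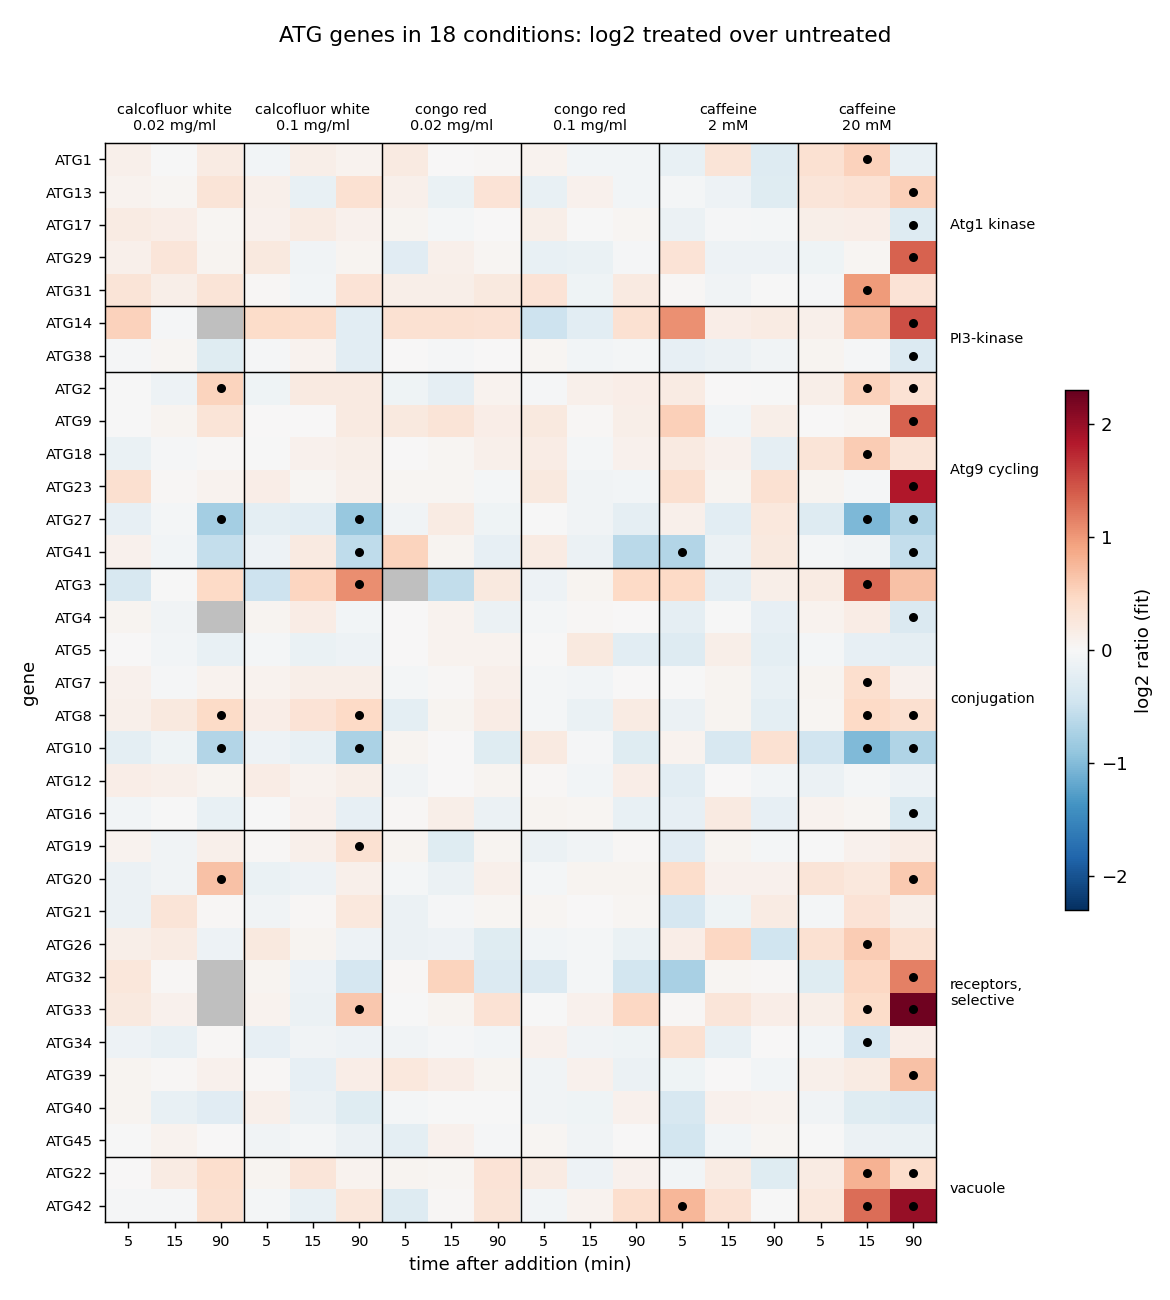
Fitted log2 ratio of the 33 tested ATG genes (rows, in groups by role) in the 18 conditions (columns, by drug, dose and time in min), with red for higher and blue for lower in treated cells, grey for a condition without a value on both arrays, and a dot for an adjusted p below 0.05. Dots stand in 5 columns, most of them in caffeine 20 mM at 90 min (20 genes) and 15 min (14 genes).

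The Atg1 kinase complex and its scaffolds were led at 90 min of caffeine 20 mM by ATG29, a subunit of the Atg17 scaffold that is needed in starvation. Its arrays read 1.45 and 1.27, both well above 0, for a fit of 1.36 ± 0.18 (2.57-fold, adjusted p = 2.66e-06). At 15 min they had read −0.38 and 0.48, on both sides of 0. In RefSeq the gene overlaps SET6, which had values on only 22 arrays and was not tested, and whether signal of SET6 enters the ATG29 spots was not tested. ATG13, the regulatory subunit that TORC1 phosphorylates, read 0.28 and 0.83 at 90 min (0.55 ± 0.22, adjusted p = 0.0479). ATG17, the scaffold of bulk autophagy, fell slightly, with arrays at −0.14 and −0.47 (−0.31 ± 0.12, adjusted p = 0.0371). The kinase gene ATG1 rose at 15 min, with arrays at 0.37 and 0.67 (0.52 ± 0.15, 1.44-fold, adjusted p = 0.0100), and at 90 min both of its arrays were slightly below 0, at −0.27 and −0.08. ATG31, which links Atg17 and Atg29, read −0.02 and 1.98 at 15 min. Its fitted rise of 0.98 ± 0.23 (adjusted p = 0.00336) thus came from replicate 2, and the value without that array was 0.04.

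Both measured subunits particular to phosphatidylinositol 3-kinase complex I changed at 90 min, in opposite directions. Of all genes, 22% rose and 22.4% fell there. ATG14, which directs the complex to the site where autophagosomes form, read 1.91 and 1.07, for a fit of 1.49 ± 0.32 (2.80-fold, adjusted p = 0.000873). ATG38, which stabilises the complex, read −0.17 and −0.45, a small drop on both arrays (−0.31 ± 0.09, adjusted p = 0.00863). Neither passed the test at 15 min, where ATG14 read 0.12 and 1.20.

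In the group of Atg9 cycling and lipid transfer, 3 of 6 genes rose and 2 fell at 90 min, a share that over all genes was 22% and 22.4%. ATG9, the membrane protein whose vesicles seed the autophagosome, read 1.09 and 1.63, both high (1.36 ± 0.18, 2.57-fold, adjusted p = 2.97e-06). ATG23, a peripheral membrane protein that helps Atg9 leave the Golgi, read 3.13 and 0.56 (1.85 ± 0.25, 3.59-fold, adjusted p = 4.19e-06). Its arrays were both above 0 but far apart, and the fit gave 0.91 without replicate 1 and 2.78 without replicate 2, each still past the threshold. The lipid transfer protein gene ATG2 rose at both times, with arrays of 0.64 and 0.41 at 15 min (0.52 ± 0.12, adjusted p = 0.00267) and 0.18 and 0.48 at 90 min (0.33 ± 0.12, adjusted p = 0.0299). ATG27, the other membrane protein that cycles with Atg9, went the opposite way to ATG9. Its arrays read −0.97 and −1.09 at 15 min, where it fell by 1.03 on the log2 scale (−1.03 ± 0.17, 2.04-fold lower, adjusted p = 9.78e-05). At 90 min they read −0.83 and −0.54 (−0.69 ± 0.17, adjusted p = 0.00199). That 90 min call was not kept in a fit without the dye term.

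Dye effects were large in 2 genes of that group. ATG18, which binds phosphatidylinositol 3-phosphate and works with Atg2, read 0.09 and 1.06 at 15 min and was fitted at 0.58 ± 0.17 (adjusted p = 0.0156). ATG41, a factor needed for Atg9 movement, read 0.08 and −1.18 at 90 min and was fitted at −0.55 ± 0.19 (adjusted p = 0.0254). The fitted dye effect, which raises replicate 1 and lowers replicate 2 by the same amount, was −0.61 for ATG18 and 0.74 for ATG41, and neither gene was called in a fit without it. Such an effect was called for 26 of the 33 tested ATG genes, and for 2815 of the 4242 genes with values on all arrays. It cannot be told apart from a difference between replicates, since the dye orientation follows the replicate number.

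In the conjugation machinery 3 of 8 genes rose and 1 fell at 15 min (14.3% and 16.8% of all genes), and 1 rose and 3 fell at 90 min (22% and 22.4%). ATG3, the E2-like enzyme that transfers Atg8 to phosphatidylethanolamine, read 0.80 and 1.83 at 15 min (1.32 ± 0.31, 2.49-fold, adjusted p = 0.00310) and 0.56 and 0.79 at 90 min, where it did not pass (0.68 ± 0.31, adjusted p = 0.0801). ATG8 itself, the ubiquitin-like protein on the autophagosome membrane, rose modestly at both times. It read 0.41 and 0.50 at 15 min (0.45 ± 0.13, 1.37-fold, adjusted p = 0.0126) and 0.05 and 0.69 at 90 min (0.37 ± 0.13, 1.29-fold, adjusted p = 0.0279). ATG7, the E1-like enzyme of both systems, read 0.33 and 0.45 at 15 min (0.39 ± 0.11, adjusted p = 0.0125).

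ATG10, the E2-like enzyme that transfers Atg12 to Atg5, stood on the low side on all of these arrays. It read −0.77 and −1.27 at 15 min (−1.02 ± 0.14, 2.02-fold lower, adjusted p = 1.46e-05) and −0.25 and −1.14 at 90 min (−0.70 ± 0.14, 1.62-fold lower, adjusted p = 0.000347). Neither call of ATG10 was kept in a fit without the dye term. ATG4, the protease that processes and recycles Atg8, read −0.06 and −0.61 at 90 min (−0.33 ± 0.12, adjusted p = 0.0248). ATG16, the partner of Atg12 and Atg5, read −0.17 and −0.53 (−0.35 ± 0.12, adjusted p = 0.0276). Both drops were small, and without replicate 2 the values were −0.07 and −0.22 and no longer passed.

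The largest fitted rise of any ATG gene in the 18 conditions was that of ATG33, a mitochondrial outer membrane protein that takes part in mitophagy. It read 2.16 and 2.31 at 90 min of caffeine 20 mM, close together and far above 0 (2.24 ± 0.16, 4.71-fold, adjusted p = 1.585e-09). At 15 min it read 0.61 and 0.22 (0.42 ± 0.16, adjusted p = 0.0485). ATG32, the receptor that recruits mitochondria to autophagosomes, read 1.02 and 1.28 at 90 min (1.15 ± 0.23, 2.22-fold, adjusted p = 0.000365). ATG39, the receptor for parts of the nuclear envelope, read 0.84 and 0.49 (0.67 ± 0.24, adjusted p = 0.0267), and ATG20, a sorting nexin of the Cvt pathway, 0.47 and 0.73 (0.60 ± 0.20, adjusted p = 0.0196). Thus 4 of the 10 tested genes of cargo selection rose at 90 min and none fell, against 22% and 22.4% of all genes. At 15 min ATG26, a sterol glucosyltransferase needed for breakdown of peroxisomes in Pichia pastoris, rose (0.40 and 0.77, fit 0.59 ± 0.21, adjusted p = 0.0377), and ATG34, a receptor for alpha-mannosidase, fell (−0.64 and −0.15, fit −0.39 ± 0.15, adjusted p = 0.0479).

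Both tested genes of vacuolar breakdown and efflux rose at both times, against 14.3% of all genes at 15 min and 22% at 90 min. ATG42, which encodes a serine carboxypeptidase of the vacuole, read 1.11 and 1.47 at 15 min (1.29 ± 0.16, 2.45-fold, adjusted p = 3.51e-06). At 90 min it read 2.03 and 1.99 (2.01 ± 0.16, 4.03-fold, adjusted p = 3.64e-09). ATG22, an exporter of amino acids from the vacuole, had its larger value at the earlier time, with arrays of 0.86 and 0.73 (0.80 ± 0.13, 1.74-fold, adjusted p = 9.61e-05) against 0.23 and 0.57 at 90 min (0.40 ± 0.13, adjusted p = 0.0144). Across roles, 5 genes rose at both times (ATG2, ATG8, ATG22, ATG33 and ATG42) and 2 fell at both (ATG10 and ATG27). This overlap was not counted over all genes, of which 31.1% were called at 15 min and 44.4% at 90 min. ATG42 was called at both times under all 14 other settings tried. At 90 min ATG9, ATG23, ATG29 and ATG33 were also called under every setting that could fit them.

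Single arrays decided many of the smaller calls. At 90 min 7 of the 20 genes (ATG9, ATG10, ATG23, ATG29, ATG32, ATG33 and ATG42) passed whichever array was left out. ATG14, ATG27 and ATG39 did not pass without replicate 1 (0.90, −0.28 and 0.18), and ATG4, ATG16 and ATG20 did not without replicate 2, where ATG20 was 0.43. The other 7 passed only with both arrays. At 15 min 4 of 14 genes passed whichever array was left out (ATG10, ATG22, ATG27 and ATG42). ATG3 and ATG31 did not pass without replicate 2, ATG26 and ATG33 without either one, and ATG1, ATG2, ATG7, ATG8, ATG18 and ATG34 without replicate 1, which is the array with disagreeing labels. Without that array ATG2 was at 0.22, ATG34 at −0.17 and ATG8 at 0.26. When all arrays of disagreeing labels were left out together, the calls of ATG22 (0.58) and ATG27 (−0.85) were lost as well.

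**Figure D2:**
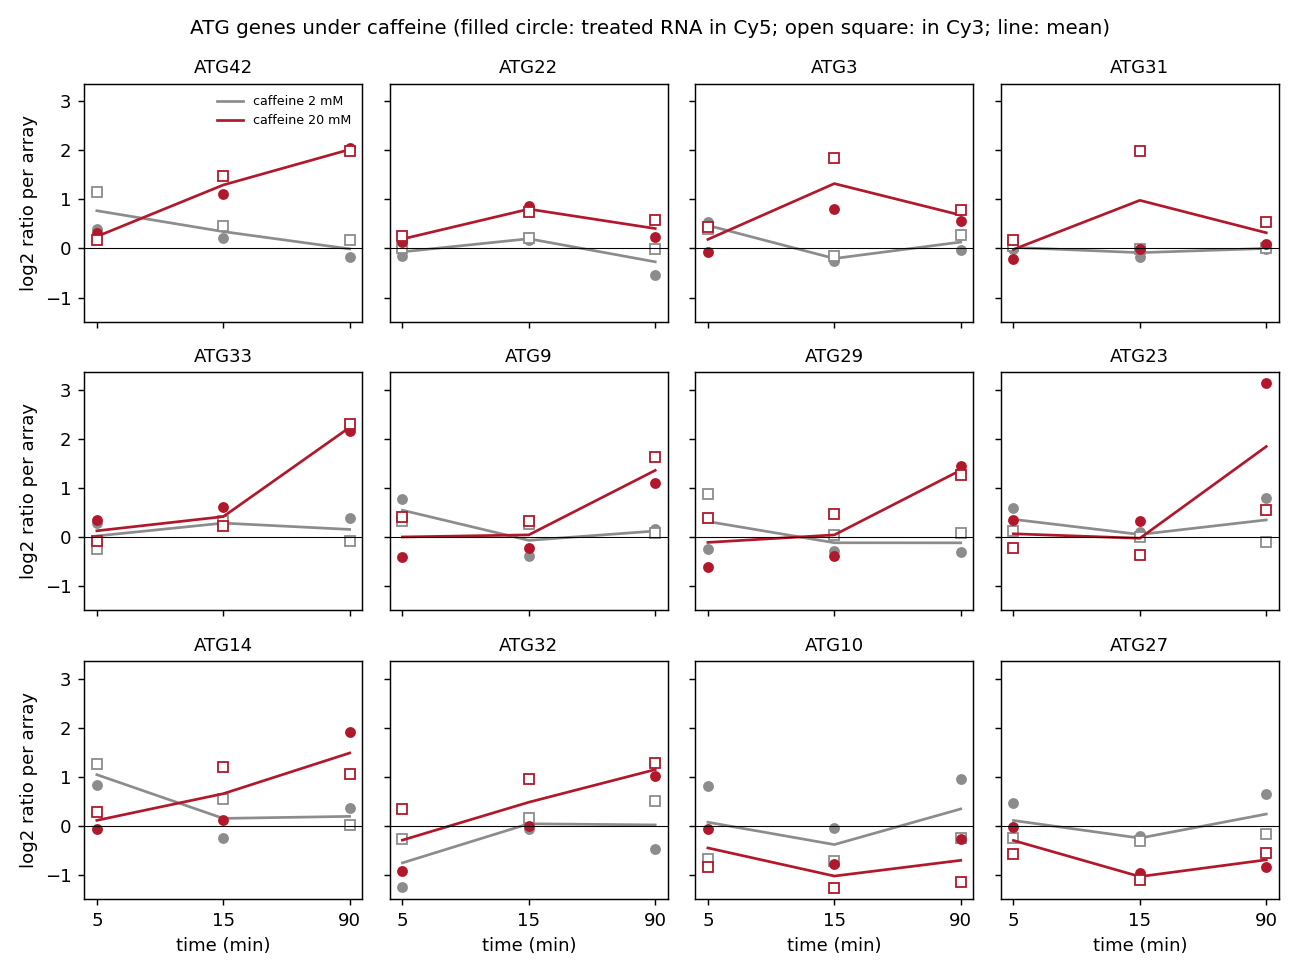
Log2 ratio per array (vertical axis) against time in min (horizontal axis, evenly spaced) for 12 ATG genes with caffeine at 2 mM (grey) and 20 mM (red), filled circles for treated RNA in Cy5, open squares for treated RNA in Cy3, and lines through the mean of the 2 arrays. Both 20 mM points of ATG33, ATG9 and ATG29 stand above the 2 mM points at 90 min, ATG23 has 1 point there at 3.13 and 1 at 0.56, ATG42 stands above 2 mM at 15 and 90 min, ATG3 and ATG31 peak at 15 min with arrays far apart, and ATG10 and ATG27 lie lowest at 15 min.

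The time course of caffeine 20 mM was tested directly. At 5 min none of 33 ATG genes passed in limma, against 1.2% of all genes. An unadjusted p under 0.05 was found for 2 of the 33 and for 624 of 5260 genes. With arrays weighted 2 ATG genes were called, beside 546 of 5260 genes. From 5 to 15 min 1 of 33 changed, ATG42, higher by 1.05 ± 0.22 (adjusted p = 0.0110), against 2.42% of all genes, and it did not pass without either 15 min array (1.06 and 1.04) or without replicate 2 of 5 min (0.80). From 15 to 90 min 6 of 33 ATG genes went up and 3 down, against 35.7% of all genes (17.9% up, 17.8% down). The increases were those of ATG23 (1.87 ± 0.35, adjusted p = 0.000406), ATG33 (1.82 ± 0.22, adjusted p = 7.24e-06), ATG29 (1.32 ± 0.25, adjusted p = 0.000434), ATG9 (1.31 ± 0.25, adjusted p = 0.000475), ATG42 (0.72 ± 0.22, adjusted p = 0.0157) and ATG34 (0.54 ± 0.21, adjusted p = 0.0491). ATG1 (−0.69 ± 0.21, adjusted p = 0.0138), ATG4 (−0.50 ± 0.16, adjusted p = 0.0237) and ATG17 (−0.46 ± 0.16, adjusted p = 0.0334) were lower at 90 than at 15 min. ATG1, ATG4, ATG17, ATG34 and ATG42 did not pass without the 15 min array of disagreeing labels (−0.58, −0.39, −0.32, 0.32 and 0.71). Without replicate 2 of 90 min ATG4 was at −0.24. The share of increases also moved with the scaling here, to 4 up and 3 down without centring and 2 up with none down on scaled arrays. Of 5202 genes, 1912 were called without centring and 405 on scaled arrays. Leaving out the centring moved the median of all genes by −0.147 in this contrast.

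At 2 mM caffeine few ATG genes passed. At 5 min 2 of 33 passed, against 5.15% of all genes. An unadjusted limma p under 0.05 was found for 10 of the 33 and for 1366 of 5316 genes. ATG14 read 0.83 and 1.26 and ATG32 −1.23 and −0.26, and neither passed. ATG42 read 0.38 and 1.15 (0.77 ± 0.16, adjusted p = 0.00829), and ATG41 read 0.03 and −1.38 (−0.68 ± 0.19, adjusted p = 0.0456). Without centring 1 was higher and 2 lower, beside 191 of 5316 genes called. The sign of replicate 1 is not settled in this condition. With that sign turned ATG42 was 0.38 and 5 ATG genes were called, and with the sign of the 15 min array turned instead 1 was called. No ATG gene passed in limma at 15 min (0.54% of all genes) or 90 min (0% of all genes). The counts at an unadjusted p under 0.05 were 3 and 4, beside 494 of 5366 and 579 of 5380 genes.

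The doses of caffeine were compared at each time. At 90 min 13 of 33 ATG genes differed between 20 and 2 mM (10 higher and 3 lower at 20 mM), against 23.2% of all genes (11.3% higher, 12% lower). ATG33 was higher by 2.08 ± 0.22 (adjusted p = 1.68e-06) and ATG42 by 2.02 ± 0.22 (adjusted p = 1.66e-06). These were called under every other setting, among which arrays scaled to 1 spread left 2 higher and none lower. On those scaled arrays 149 of 5262 genes were called. ATG23 (1.49 ± 0.35), ATG29 (1.48 ± 0.25), ATG14 (1.29 ± 0.46), ATG9 (1.23 ± 0.25) and ATG32 (1.13 ± 0.32) were higher by 1 log2 unit or more. Without replicate 1 of 20 mM ATG23 was at 0.56 and ATG14 at 0.70, and neither passed. ATG26, ATG22 and ATG8 were higher by 0.82, 0.68 and 0.59, and ATG10, ATG27 and ATG41 lower (−1.05, −0.93 and −0.78). ATG26 was at 0.34 without replicate 1 of 2 mM and ATG27 at −0.52 without replicate 1 of 20 mM, and neither passed. At 15 min 2 ATG genes differed, against 4.82% of all genes: ATG3 by 1.52 ± 0.43 (adjusted p = 0.0479) and ATG42 by 0.95 ± 0.22 (adjusted p = 0.0140). The ATG3 call was lost in 14 of 15 other settings and that of ATG42 in 9 of 16, and leaving out any 1 of the 4 arrays lost both. With the unsettled sign of 2 mM replicate 1 turned, ATG3 was at 1.27 and did not pass, and 5 ATG genes were called. At 5 min none did in limma, against 2.59% of all genes. An unadjusted p under 0.05 was found for 5 of 33 ATG genes and for 1421 of 5209 genes.

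Calcofluor white changed ATG genes at 90 min and not detectably before. At 0.1 mg/ml 7 of 33 ATG genes passed (4 higher, 3 lower), against 14.7% of all genes (6.33% higher, 8.34% lower), with a median of 0.10 against −0.01. ATG27 read −0.46 and −1.29 (−0.88 ± 0.17, 1.84-fold lower, adjusted p = 0.000927), and ATG10 read −0.28 and −1.17 (−0.73 ± 0.14, 1.66-fold lower, adjusted p = 0.000977). Both genes were thus low on both arrays, as they were with caffeine 20 mM, and the calls without replicate 2 failed at −0.69 and −0.68. ATG3 read 0.80 and 1.33 (1.07 ± 0.31, 2.10-fold, adjusted p = 0.0218), ATG33 0.72 and 0.51 (0.62 ± 0.16, 1.53-fold, adjusted p = 0.0103) and ATG8 0.31 and 0.60 (0.45 ± 0.13, adjusted p = 0.0220). ATG19, the receptor that brings aminopeptidases into the Cvt pathway, read 0.40 and 0.29 (0.35 ± 0.11, adjusted p = 0.0420) and was at 0.13 without replicate 1. ATG3, ATG8, ATG33 and ATG41 passed only with both arrays. ATG41 read 0.19 and −1.38 (−0.59 ± 0.19, adjusted p = 0.0433), again a pair on both sides of 0 that the dye term brings together.

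At 0.02 mg/ml calcofluor white 5 of 29 ATG genes passed at 90 min (3 higher, 2 lower), against 11.1% of all genes (5.51% higher, 5.59% lower). ATG4, ATG14, ATG32 and ATG33 lacked a value on an array there. ATG27 read −0.70 and −0.86 (−0.78 ± 0.17, adjusted p = 0.00334) and ATG10 −0.32 and −1.04 (−0.68 ± 0.14, adjusted p = 0.00244). ATG2 (0.18 and 0.84, fit 0.51 ± 0.12, adjusted p = 0.00766) and ATG8 (0.26 and 0.62, fit 0.44 ± 0.13, adjusted p = 0.0333) were higher. ATG20 read 0.11 and 1.23 (0.67 ± 0.20, adjusted p = 0.0342) and was at 0.05 without replicate 2. On the first of its 2 spots alone it was at 0.19 and did not pass. ATG2 (0.34) also needed replicate 2, ATG27 (−0.61) needed replicate 1, and ATG8 and ATG10 passed only with both arrays. Neither dose had an ATG gene that passed under every other setting, and none passed without the dye term. The split was 0 higher and 4 lower at 0.02 mg/ml and 2 higher and 3 lower at 0.1 mg/ml without centring, which moved the median of all genes by −0.139 at the lower dose. On scaled arrays it was 1 higher and 2 lower, and 0 higher and 2 lower. Of 4702 genes at 0.02 mg/ml, 666 were called without centring, 325 on scaled arrays and 149 without the dye term. Of 5216 genes at 0.1 mg/ml the counts were 727, 345 and 231. The 2 doses did not differ for any of 29 ATG genes in limma (0% of all genes). An unadjusted p under 0.05 was found for 0 of the 29 and for 104 of 4668 genes.

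At 5 and 15 min no ATG gene passed in limma with either dose of calcofluor white, and the 15 min results rest on arrays of disagreeing labels alone. The shares of all genes called were 0% at both times of 0.02 mg/ml, 0% at 5 min of 0.1 mg/ml and 0.0197% at 15 min. The number of ATG genes at an unadjusted p under 0.05 was 2 at 15 min of 0.1 mg/ml, beside 242 of 5082 genes. It was 0 in the other 3 conditions. Between 15 and 90 min of 0.1 mg/ml none of 33 passed, against 2.37% of all genes. An unadjusted p under 0.05 was found for 5 of the 33 and for 751 of 4973 genes. Without centring 1 ATG gene was called, which was lower, beside 118 of 4973 genes.

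Congo red gave no ATG call in any of its 6 conditions. At 90 min of 0.1 mg/ml 0 of 33 passed in limma against 1.38% of all genes, and the median was 0.02. Unadjusted, 543 of 5380 genes had a p under 0.05, among them 4 ATG genes. Those 4 were ATG41 (0.45 and −1.70, fit −0.63 ± 0.19, adjusted p = 0.155), ATG33 (0.81 and 0.15, fit 0.48 ± 0.16, adjusted p = 0.190), ATG42 (0.15 and 0.62, fit 0.39 ± 0.16, adjusted p = 0.355) and ATG5 (0.09 and −0.57, fit −0.24 ± 0.11, adjusted p = 0.492). ATG33 and ATG42 lay above 0 on both arrays, and ATG41 and ATG5 straddled it. At 0.02 mg/ml 0 passed at 90 min, against 0.691% of all genes. An unadjusted p under 0.05 was found for 2 ATG genes and for 367 of 5354 genes. With arrays weighted 2 ATG genes were called, beside 330 of 5354 genes. At 5 and 15 min 0 passed (0% and 0.0187% of all genes at 0.02 mg/ml, 0.0187% and 0% at 0.1 mg/ml). The counts at an unadjusted p under 0.05 were 0 to 2 for ATG genes and 45 to 191 for all genes. ATG3 lacked a value at 5 min of 0.02 mg/ml. Neither the doses at 90 min (0% of all genes) nor the times 15 and 90 min of 0.1 mg/ml (0.0748% of all genes) differed for any ATG gene in limma. The counts at an unadjusted p under 0.05 were 0 and 1, beside 92 of 5348 and 241 of 5350 genes.

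**Figure D3:**
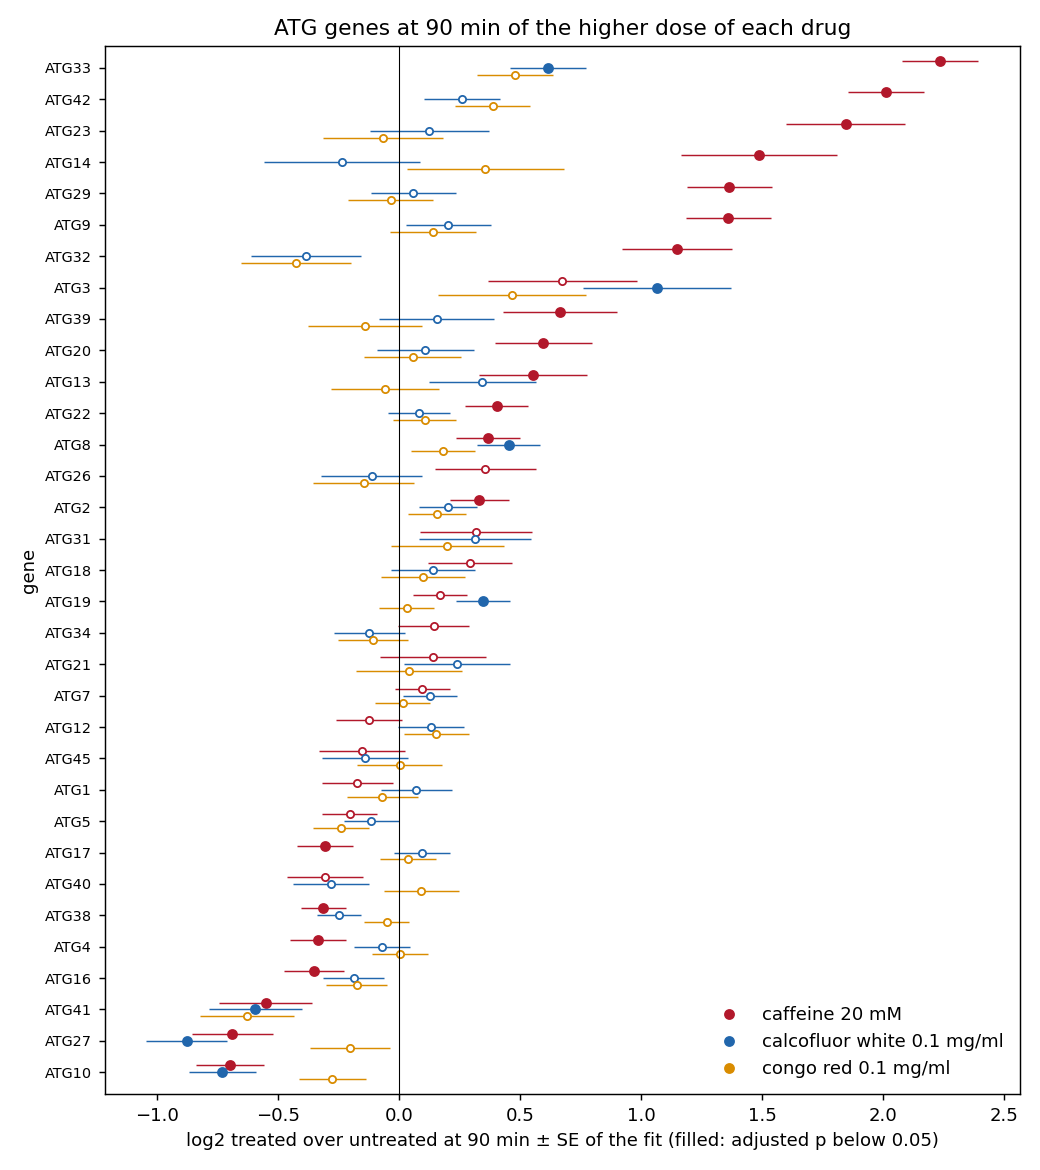
Fitted log2 ratio at 90 min (horizontal axis, ± SE of the fit) of the 33 tested ATG genes (rows, ordered by caffeine) for caffeine 20 mM (red), calcofluor white 0.1 mg/ml (blue) and congo red 0.1 mg/ml (orange), filled where the adjusted p was below 0.05. Caffeine points run from −0.70 for ATG10 to 2.24 for ATG33, while those of the dyes stay between −0.88 (ATG27) and 1.07 (ATG3), both with calcofluor white.

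The dyes were compared at the matched dose of 0.1 mg/ml and the matched time of 90 min, which is 1 pair of compounds over 33 ATG genes. None differed after adjustment over all genes in limma, against 0.288% of all genes. Unadjusted, 627 of 5207 genes had a p under 0.05, among them 2 ATG genes. These were ATG27, higher with congo red by 0.68 (95% interval 0.19 to 1.16, adjusted p = 0.221), and ATG10, higher by 0.45 (0.05 to 0.86, adjusted p = 0.347). For ATG33 the difference was −0.14 (−0.60 to 0.33), for ATG3 −0.60 (−1.51 to 0.30) and for ATG8 −0.27 (−0.66 to 0.12). Each of these intervals reaches a difference of 0.60 or more in one direction, so the comparison does not show that both dyes act alike on them. Without centring the median of all genes in this comparison shifted by 0.112.

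Caffeine 20 mM was also set against the mean of both dyes at 0.1 mg/ml, although the doses are in different units and cannot be matched. At 90 min 29.6% of all genes differed (790 of 5139 higher with caffeine, 732 lower). Of 33 ATG genes 7 differed, and each was higher with caffeine. They were ATG23 (1.82 ± 0.30, adjusted p = 0.000173), ATG42 (1.69 ± 0.19, adjusted p = 2.15e-06), ATG33 (1.69 ± 0.19, adjusted p = 3.40e-06), ATG32 (1.55 ± 0.28, adjusted p = 0.000386), ATG14 (1.43 ± 0.39, adjusted p = 0.0105), ATG29 (1.35 ± 0.21, adjusted p = 0.000109) and ATG9 (1.19 ± 0.21, adjusted p = 0.000386). ATG10 and ATG27, which fell with both caffeine and calcofluor white, were not among them. ATG14 was at 0.84, and did not pass, without replicate 1 of caffeine and also with floored spots kept. At 15 min 5 of 33 differed, against 17.2% of all genes (357 of 4957 higher, 498 lower). ATG42 (1.33 ± 0.19, adjusted p = 5.47e-05), ATG31 (1.06 ± 0.28, adjusted p = 0.0134) and ATG22 (0.72 ± 0.16, adjusted p = 0.00320) were higher with caffeine, and ATG10 (−0.92 ± 0.17, adjusted p = 0.000758) and ATG27 (−0.87 ± 0.20, adjusted p = 0.00507) lower. Labels disagree on 3 of the arrays in that contrast, replicate 1 of caffeine and both of calcofluor white, and leaving out all 3 would leave no calcofluor white array. Leaving out the caffeine array gave 3 calls, and leaving out either calcofluor white array gave 6 or 5. ATG31 was at 0.12 without replicate 2 of caffeine, and ATG22 and ATG27 did not pass without replicate 1 (0.51 and −0.69). On the first of its 2 spots alone ATG22 was at 0.36 and did not pass.

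The other 8 of the 36 genes had no call. ATG5 and ATG12, the conjugate that acts on Atg8, ranged over the 18 conditions from −0.30 to 0.22 and from −0.25 to 0.18. ATG21, a phosphoinositide-binding protein that recruits the Atg8 machinery, ranged from −0.38 to 0.32. ATG40, a receptor for the endoplasmic reticulum, ranged from −0.37 to 0.11 and ATG45, a receptor for glycogen, from −0.43 to 0.11. The smallest adjusted p among these 5 was 0.114, for ATG5 with caffeine 2 mM at 5 min. The remaining 3 had too few values to be tested. ATG11, the scaffold of selective autophagy, had values on 17 arrays, from −3.19 to 2.63. ATG15, the vacuolar lipase that opens autophagic bodies, had values on 20 arrays from −2.58 to 1.59, and ATG36, the peroxisome receptor, on 16 arrays from −1.50 to 1.02. ATG15 read 1.59 and 0.31 on the single arrays that measured it at 15 and 90 min of caffeine 20 mM.

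Genes that act beside the ATG proteins were read from 5 lists, whose counts stand beside 22% higher and 22.4% lower over all genes at 90 min of caffeine 20 mM and 14.3% and 16.8% at 15 min. With caffeine 20 mM at 90 min 4 of the 9 tested vacuolar hydrolases and Cvt cargoes rose, and none fell (median 0.27). APE1, the aminopeptidase that is the main cargo of the Cvt pathway, read 5.34 and 3.12 (4.23 ± 0.41, limma adjusted p = 1.59e-07). PEP4, the protease that activates other vacuolar enzymes, read 1.77 and 1.84 (1.81 ± 0.12, adjusted p = 3.00e-10). The cysteine aminopeptidase gene LAP3 (1.81 and 1.54, fit 1.68 ± 0.21) and the Cvt cargo gene APE4 (0.61 and 0.63, fit 0.62 ± 0.11) were higher on both arrays as well. At 15 min 2 of the 9 rose and 2 fell. Among 20 tested autophagy partners with other symbols 3 rose and 4 fell at 90 min (35% called, against 44.4% of all genes, median −0.03). SNX4, the sorting nexin that binds Atg20, rose by 0.77 ± 0.18. The vacuolar Rab gene YPT7 (−0.51 ± 0.10), the receptor gene CUE5 (−0.54 ± 0.16) and TRS85 of the TRAPPIII complex (−0.45 ± 0.13) fell. At 15 min 0 of the 20 rose and 2 fell.

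Of 25 tested regulators in TORC1, protein kinase A and transcriptional control, 9 rose and 2 fell at 90 min (median 0.28), and 5 of 24 rose and 3 fell at 15 min. The share called, 44% and 33.3%, was near that of all genes, 44.4% and 31.1%. The GATA activator gene GLN3 (1.29 ± 0.22), the stress activator gene MSN4 (1.03 ± 0.18) and SIN3 (1.12 ± 0.19), a corepressor subunit, rose. RIM15, a kinase that promotes entry into quiescence, fell, with arrays of −0.87 and −0.77 (−0.82 ± 0.11). Among 19 tested genes under nitrogen catabolite repression, which GATA factors switch on when nitrogen is poor, 10 (52.6%) rose and 0 fell at 90 min (median 0.72), and 12 (63.2%) rose and 1 fell at 15 min (median 0.65). The ammonium transporter gene MEP2 read 4.14 and 4.11 (4.12 ± 0.33), GDH2 of glutamate breakdown 2.50 and 2.31 (2.41 ± 0.16) and the allantoicase gene DAL2 1.50 and 3.31 (2.40 ± 0.24). ASP3-1, which has near-identical copies that the array may not separate, was at 2.48 ± 0.24. Of 26 tested general stress genes of Msn2 and Msn4, 14 (53.8%) rose and 1 fell at 90 min (median 0.67), and 15 of 25 rose and 0 fell at 15 min (median 0.59). HSP12 (3.58 ± 0.18), NTH1 (2.37 ± 0.20), GPH1 (1.90 ± 0.12) and HSP104 (1.33 ± 0.16) were named there by the smallest p. The medians of the nitrogen and stress lists were larger than the ATG median of 0.29 at 90 min, and the lists were chosen with results of these data known.

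With calcofluor white at 90 min of 0.1 mg/ml, where 14.7% of all genes were called, the vacuolar list had 2 higher and 2 lower of 9 (44.4%), the partners 1 higher and 1 lower of 20, the stress list 4 higher of 25, the regulators 2 higher and 1 lower of 24, and the nitrogen list 1 higher of 19. With congo red, where the share over all genes was 1.38%, 1 vacuolar gene of 9 and 1 stress gene of 26 were higher, and 0 genes of the other 3 lists passed in limma.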

How the data were processed

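Per array the authors deposited ratios on a natural log (ln) scale, a unit read from the values themselves, with a mean of 0. The sources used here do not give the scanner, background correction or normalization. A repeated floor value, at 1.609% to 16.09% of named spots per array (6.636% of ATG spot values), was treated as missing. Division by 0.6931 gave log2 values, which were averaged per gene (2 spots for each ATG gene) and centred on the array median. Named spots (11872 of 15488) were matched by locus to 5713 RefSeq genes of assembly R64.

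Tested genes had values on 24 or more of the 36 arrays (5391 genes) and a complete pair in the conditions compared. The model in limma 3.58.1 (R 4.3.3) had a term for each of 18 conditions and 1 for the dye, with 17 residual and 3.67 prior degrees of freedom and a median condition SE of 0.166. The dye term is also the replicate block. It was kept because arrays of 1 replicate number deviated together in 153 of 153 pairs of conditions (correlation 0.114 to 0.826), and the pairing comes from the dye orientation in the labels. Benjamini-Hochberg adjustment ran over all tested genes of a comparison. The fit was tested on simulated data with independent noise of the same size on every array. That test cannot show how the unequal spread of the real arrays affects the calls.

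All ATG genes are accounted for, with full values for those called anywhere. From each companion list the 4 genes of smallest p with caffeine 20 mM at 90 min were named. Members, roles and lists were chosen with earlier results of these data known, and ATG45 was placed in its role after the files were read. Alternatives changed the block, scaling, weights, centring, floor, spots, genes, arrays and signs. Promoter sequences were not analysed here. Tables were made in python 3.11.15 with numpy 2.4.6 and pandas 2.3.3.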

Additional observations from a re-analysis of the deposited data

Results flagged for a closer look

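Differences between doses, times or drugs passed limma's own test of the difference (adjusted p below 0.05) for the genes below, all as log2. Each is a difference of fitted values from 2 arrays a condition.

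Between caffeine 20 and 2 mM at 15 min, ATG42 differed by 0.949 and ATG3 by 1.52. At 90 min ATG33 differed by 2.08, ATG42 by 2.02, ATG23 by 1.49, ATG29 by 1.48, ATG14 by 1.29, ATG9 by 1.23, ATG32 by 1.13, ATG26 by 0.816, ATG22 by 0.677 and ATG8 by 0.585. ATG10, ATG27 and ATG41 differed there by −1.05, −0.931 and −0.782.

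Between times of caffeine 20 mM, ATG42 differed by 1.05 from 5 to 15 min. From 15 to 90 min ATG23 differed by 1.87, ATG33 by 1.82, ATG29 by 1.32, ATG9 by 1.31, ATG42 by 0.723 and ATG34 by 0.535, and ATG1, ATG4 and ATG17 by −0.693, −0.503 and −0.461.

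Between caffeine 20 mM and the mean of the dyes at 0.1 mg/ml, ATG42 differed by 1.33 at 15 min, ATG31 by 1.06, ATG22 by 0.719, ATG10 by −0.922 and ATG27 by −0.874. At 90 min ATG23 differed by 1.82, ATG42 and ATG33 by 1.69 each, ATG32 by 1.55, ATG14 by 1.43, ATG29 by 1.35 and ATG9 by 1.19.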

How the results depend on the processing

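Counts of ATG calls are given in the order caffeine 20 mM at 90 min and 15 min (main values 20 and 14), 20 against 2 mM at 90 and 15 min (13 and 2), 90 against 15 min and 15 against 5 min of 20 mM (9 and 1), 2 mM at 5 min (2), caffeine against the dyes at 90 and 15 min (7 and 5), and calcofluor white at 90 min of 0.1 and 0.02 mg/ml (7 and 5). Without the replicate block (the dye term) they were 8, 5, 4, 0, 4, 0, 0, 7, 1, 0 and 0. With arrays scaled to 1 spread they were 5, 5, 2, 0, 2, 0, 0, 4, 3, 2 and 3. Array weights gave 10 at 90 min, 7, 1, 4 and 4 for the dose and time contrasts in that order, 0 for 2 mM at 5 min, 4 for calcofluor white 0.1 mg/ml, and 2 each for caffeine 20 mM at 5 min and congo red 0.02 mg/ml at 90 min, where the main count was 0. A fit on the arrays of 1 drug gave 11, 5, 7, 0, 4, 0 and 0 for caffeine and 4 for calcofluor white 0.1 mg/ml. The dose contrast at 15 min fell to 1 with the first spot, floored spots kept, genes on all arrays, no centring, or arrays of disagreeing labels left out, to 0 with the sign of caffeine 2 mM 5 min replicate 1 turned, and rose to 5 with that of 15 min turned. The first spot gave 0 for 15 against 5 min and 1 for 2 mM at 5 min. Genes on all arrays gave 4 for caffeine against the dyes at 90 min. Turning the 5 min sign gave 0 for 15 against 5 min and 5 for 2 mM at 5 min, and turning the 15 min sign, a setting chosen after seeing the data, gave 1 there. Leaving out the disagreeing labels gave 4 for caffeine 20 mM at 15 min and 5 for 90 against 15 min. Without centring the ATG median of calcofluor white 0.02 mg/ml at 90 min reversed from 0.0629 to −0.0759, and its 90 against 15 min contrast at 0.1 mg/ml had 1 call.

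Leaving out 1 array gave 10 to 11, 6 to 10, 6 to 11, 0 to 2, 5 to 12, 0 to 2 and 3 to 5 for caffeine, 3 to 6 for caffeine against the dyes at 15 min, and 1 to 2 and 1 to 3 for calcofluor white. It gave 0 to 5 for 20 against 2 mM at 5 min and 0 to 1 for both the dose and the time contrast of calcofluor white, all with a main count of 0. Pooled over called ATG genes and the named companion genes, 1134 single-gene values under other settings kept their call, 391 lost it and 0 changed direction. The cause of these changes was not tested. The drug-only fit was not run between drugs, and the promoter motif search was not run.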
